A study of Mus musculus with 16 samples.

Results

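The genes described here are the chloride channel gene Ano1 and 9 genes of extracellular ATP and calcium release signalling, namely P2ry1, P2ry2, P2ry4, P2rx2, P2rx7, Panx1, Itpr1, Itpr2 and Itpr3. They were taken by symbol for their place in the spontaneous activity of the greater epithelial ridge (GER), and are 10 of the 47729 genes that had a value. RNA was sequenced from mouse cochleae at postnatal day 4 (P4), in 16 libraries that fall into 4 groups of 4. Control mice were GLAST-CreERT/+; Rpl22 HA/+, and DTR mice were Lgr5 DTR/+; GLAST-CreERT/+; Rpl22 HA/+, so that both carried the Cre driver and the HA-tagged ribosomal protein of the RiboTag line, and the DTR mice alone carried the diphtheria toxin receptor under Lgr5. The study's methods give diphtheria toxin and tamoxifen to both genotypes, whereas the sample labels call the control libraries untreated and the others DTR treated. From each homogenate of pooled cochleae a small part was kept as input (RNA of all cells) and the rest went to immunoprecipitation of tagged ribosomes (IP, RNA on ribosomes of cells with Cre activity). GLAST drives Cre in inner phalangeal cells (IPhCs) and GER cells and can do so in other GLAST-expressing cells that the dissection left. In control IP against control input, 3 of 6 GER markers were lower (Calb1, Otoa and Tecta) and 1 higher (Crabp1). Of all tested genes 20.7% were lower and 19.3% higher. Of 2 markers of inner phalangeal and border cells, Fabp7 was higher there and Slc1a3, the gene for GLAST, was not called. All 10 hair cell, 9 macrophage and 5 endothelial markers were lower. In DTR IP against DTR input Slc1a3 was called lower, with an LFC of −0.27 (adjusted p = 0.030, limma), and Fabp7 was not called.

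Before hearing starts, supporting cells of the GER release ATP through hemichannels in spontaneous bursts. The ATP acts on P2Y receptors, which are coupled through Gq and phospholipase C to inositol trisphosphate (IP3) receptors that empty calcium from the endoplasmic reticulum, and on P2X receptors, which are ion channels opened by ATP. The rise in calcium opens the channel ANO1 (TMEM16A), chloride and water leave the supporting cells, and the potassium that follows depolarizes the inner hair cells nearby.

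The sequences upstream of 3 genes are shown because Ano1 and P2ry2 had the largest differences after damage among the 9 genes that could be tested, and Itpr3 was called in opposite directions in IP and input. RefSeq (GRCm38.p6) gave 10 start sites for 8 of the 10 genes, and none for P2rx2 and Itpr1. Each line holds the 250 bases before a start, 5′ to 3′ on the strand of the gene, and capitals mark a match to the EGR motif GCGNGGGCG on either strand.
Ano1, chr7:144738574-144738823, minus strand: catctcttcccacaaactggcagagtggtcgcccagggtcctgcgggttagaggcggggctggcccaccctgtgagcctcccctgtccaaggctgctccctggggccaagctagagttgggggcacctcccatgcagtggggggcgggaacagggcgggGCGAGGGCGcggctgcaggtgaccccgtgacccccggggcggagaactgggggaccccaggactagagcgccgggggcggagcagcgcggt
P2ry2, chr7:101012054-101012303, minus strand: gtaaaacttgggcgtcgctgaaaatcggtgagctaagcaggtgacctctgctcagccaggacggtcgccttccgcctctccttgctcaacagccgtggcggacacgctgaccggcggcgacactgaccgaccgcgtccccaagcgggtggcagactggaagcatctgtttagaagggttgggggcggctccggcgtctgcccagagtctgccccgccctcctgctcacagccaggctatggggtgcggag
Itpr3, chr17:27057054-27057303, plus strand: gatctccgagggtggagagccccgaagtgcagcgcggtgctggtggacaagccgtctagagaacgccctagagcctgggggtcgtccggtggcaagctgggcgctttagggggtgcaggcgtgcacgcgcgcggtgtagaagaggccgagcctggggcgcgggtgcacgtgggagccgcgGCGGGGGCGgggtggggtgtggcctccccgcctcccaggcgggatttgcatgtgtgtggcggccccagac
The Ano1 window lies within the annotated gene, since longer transcript models begin further upstream, and its last bases fall in an annotated first exon. The P2ry2 window also lies within its gene and overlaps no annotated exon, and the Itpr3 window ends directly before the gene. Their G and C contents were 72%, 65.2% and 72%, against a median of 52.4% over 32851 mouse promoters. The EGR letters began 91 bases before the Ano1 start and 70 bases before the Itpr3 start, and they were also present 10 bases before 1 of 2 P2rx7 starts. They occur in 4.70% of all promoter windows. These letters are G and C apart from the N, and windows of like G and C content were not compared. The AP-1 motif TGANTCA (6.75% of all windows) was found only in that P2rx7 window, and the letters GGAATG (the TEAD motif, 12.6%) and TATAAA (the TATA box, 12.4%) in none of the 10. No motif match overlapped another.

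Values are CPM, that is reads per gene scaled to the same total in each library, deposited by the authors, from libraries of 28089836 to 41966310 counted reads. Differences are log2 fold changes (LFC) of quantile-normalized CPM plus 0.5, tested with limma over 16994 genes that had at least 0.5 CPM in all 4 libraries of a group, and a gene is called at an adjusted p under 0.05. Each replicate was a separate pool of cochleae by the study's methods. Lgr5, the gene that carries the toxin receptor, checked the labels. It lay between 59.0 and 66.1 CPM in control input and between 11.2 and 19.6 CPM in DTR input, and it fell in IP from 36.6 to 9.38 CPM on average. The summed CPM of 5 markers of LGR5+ supporting cells ranged from 783 to 991 in control input and from 320 to 373 in DTR input. Markers of IPhCs and GER were detected in every library.

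Ano1 (ENSMUSG00000031075, chr7:144588549-144751974, minus strand, GRCm38) encodes the calcium-activated chloride channel ANO1. Its control input libraries read 241, 265, 302 and 355 CPM and its control IP libraries 320, 336, 284 and 412 CPM. The DTR input libraries read 92.6, 107, 110 and 164 CPM, and the DTR IP libraries 96.6, 103, 69.3 and 114 CPM. Every DTR library lay below every control library, in input and in IP, and the fourth replicate was the highest of each group. Ano1 fell after damage in the IP by 3.53-fold (LFC −1.83 ± 0.18, SE, adjusted p = 9.01e-07, limma) and in the input by 2.46-fold (LFC −1.27, adjusted p = 7.67e-05). The fall was 0.56 larger on the log2 scale in IP than in input, a difference that did not pass over all genes (adjusted p = 0.953, limma interaction). In bulk RNA, fewer cells of a type and less RNA per cell cannot be told apart. Per kilobase of exon, Ano1 was above 94.1% of 16933 tested genes in control IP and above 76.1% in DTR IP, which made it the highest of the 10 genes on that scale in both groups.

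**Figure D1:**
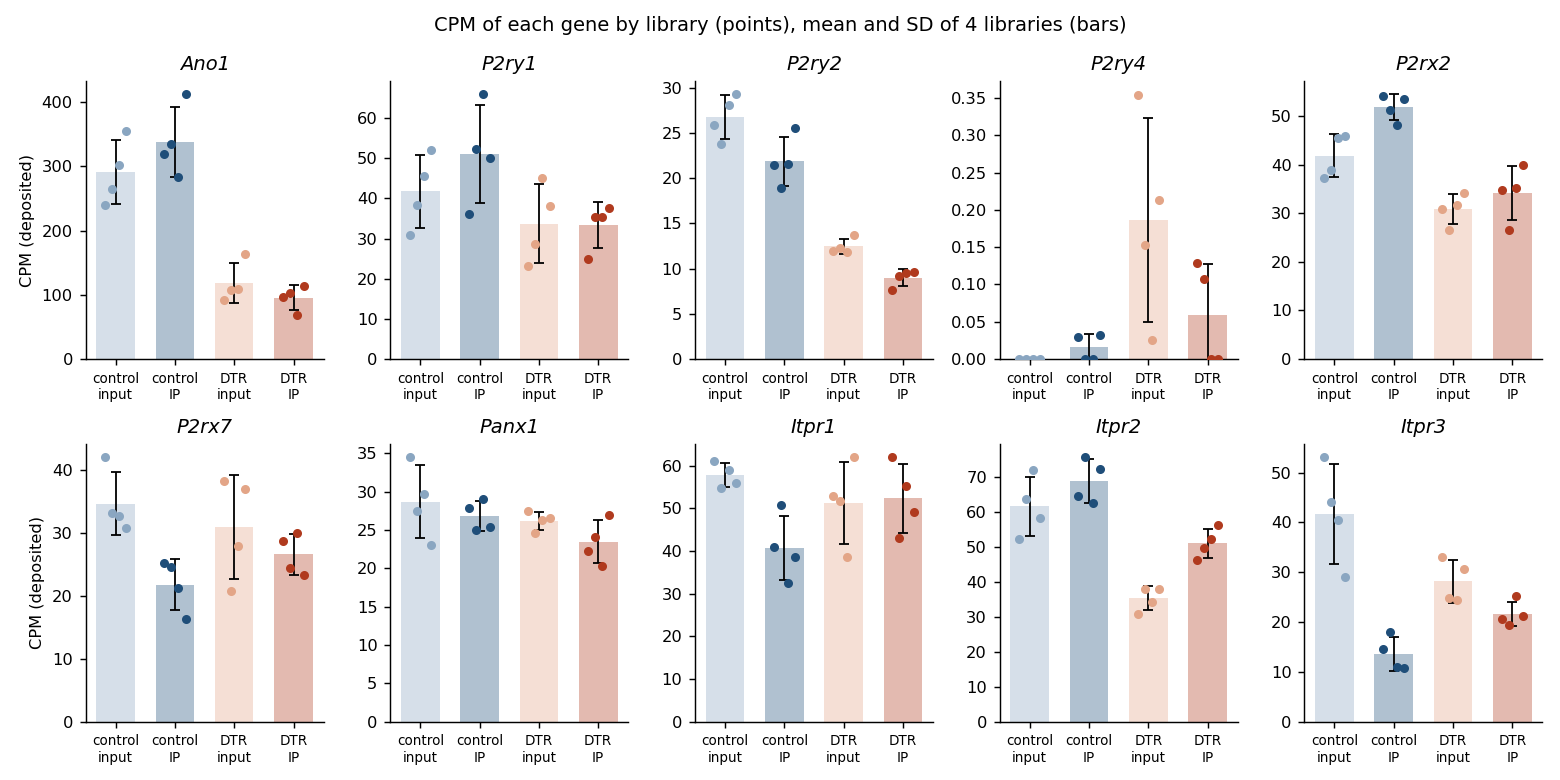
Deposited CPM (linear axes from 0, one scale per gene) of the 10 genes in the input and IP groups of both treatments. Points are the 4 libraries of a group, bars their mean and error bars the SD. The DTR points of Ano1 and P2ry2 lie below every control point, and Itpr3 is lowest in control IP.

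Levels of Ano1 did not separate IP from input. The ratio of IP to input within a pool was 1.17 ± 0.17 (SD, n = 4) in control and 0.832 ± 0.20 (SD, n = 4) in DTR cochleae. Ano1 was higher in IP than in input in 3 of 4 control pools and in 1 of 4 DTR pools. Neither difference passed the test, with an LFC of 0.27 in control (adjusted p = 0.26, limma) and −0.29 in DTR (adjusted p = 0.22, limma).

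Of P2ry1 and P2ry2, the P2Y receptors (which signal through G proteins) that could be tested, P2ry2 had the larger changes. This receptor for ATP and UTP (ENSMUSG00000032860, chr7:100996568-101012866) read 25.8, 23.8, 28.0 and 29.3 CPM in control input and 21.4, 18.9, 21.6 and 25.5 CPM in control IP. After damage it read 11.99, 12.3, 11.8 and 13.7 CPM in input, and 7.65, 9.22, 9.54 and 9.63 CPM in IP. The groups did not overlap in either fraction. P2ry2 fell by 2.43-fold in IP (LFC −1.26 ± 0.15, SE, adjusted p = 6.47e-06, limma) and by 2.15-fold in input (LFC −1.11, adjusted p = 2.72e-05). It was lower in IP than in input in all 8 pools, at 0.816 of input in control and 0.724 in DTR on average. That difference passed the test in DTR (LFC −0.45, adjusted p = 0.021, limma), but not without DTR input 4 (adjusted p = 0.053) or without DTR IP 1 (adjusted p = 0.076). In control the LFC was −0.31 (adjusted p = 0.11, limma), and adjusted p = 0.036 with the pool as a block.

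P2ry1, the ADP receptor (ENSMUSG00000027765, chr3:61002795-61008982), varied widely between pools. It read 31.0, 38.5, 45.5 and 52.0 CPM in control input and 36.2, 52.4, 66.0 and 50.2 CPM in control IP. After damage it read 23.1, 28.6, 45.2 and 38.2 CPM in input, and 24.8, 35.5, 35.4 and 37.6 CPM in IP. Replicate 1 was the lowest of each group, and the groups overlapped in both fractions. The LFC of −0.63 in IP did not pass (adjusted p = 0.069, limma), nor did −0.34 in input (adjusted p = 0.41). P2ry1 was lower in DTR than in the control library of the same number in 4 of 4 pairs in each fraction. With that number as a block, it was called lower in IP (adjusted p = 0.00043) and in input (adjusted p = 0.040). In IP it was also called by edgeR (adjusted p = 0.041), by DESeq2 (0.017) and by limma without control IP 1 (0.027). Reads of the antisense gene Gm37035, which shares 992 exonic bases with P2ry1, could not be told apart from its own if the counting was unstranded.

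P2ry4, another P2Y receptor gene (ENSMUSG00000044359, chrX:100590154-100594869), was near 0. Control input held 0 reads in all 4 libraries, which allows up to 0.0190 CPM over the group (3 reads), and control IP held 1, 0, 0 and 1 reads. DTR input held 12, 5, 1 and 7 reads, and DTR IP 4, 3, 0 and 0. The pooled DTR input level of 0.18 CPM was at least 9.47-fold above the 3-read limit of control input. All 4 DTR input libraries were above all 4 control libraries (two-sided exact permutation test, p = 0.0286, which is the smallest that 4 against 4 can give, and 0.0571 after adjustment over the 2 fractions). In IP the same permutation test gave p = 0.43. These limits cover counting error only, and the gene was too low for the test across all genes.

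Both P2X receptors among the 10 genes are ATP-gated cation channels, and they behaved differently. P2rx2 (ENSMUSG00000029503, chr5:110339812-110343212) read 37.2, 38.9, 45.5 and 45.8 CPM in control input and 54.2, 51.4, 48.3 and 53.6 CPM in control IP. In DTR it read 31.0, 26.6, 31.8 and 34.2 CPM in input and 34.8, 26.7, 35.3 and 40.0 CPM in IP. Control and DTR libraries did not overlap in either fraction. P2rx2 fell by 1.52-fold in IP (LFC −0.64 ± 0.13, SE, adjusted p = 0.0017, limma) and by 1.35-fold in input (LFC −0.44, adjusted p = 0.027). The call in input was lost without control input 3 (adjusted p = 0.089), control input 4 (0.088), DTR input 1 (0.068) or DTR input 2 (0.098).

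P2rx7 (ENSMUSG00000029468, chr5:122643911-122691432), which responds to high ATP and is known from immune cells, did not pass after damage. It read 42.0, 33.1, 32.6 and 30.8 CPM in control input and 25.1, 24.5, 21.2 and 16.3 CPM in control IP. In DTR it read 38.2, 20.7, 27.8 and 37.0 CPM in input and 28.7, 24.4, 30.0 and 23.2 CPM in IP, and DTR overlapped with control in both fractions. The LFC was 0.25 in IP (95% interval −0.10 to 0.60, adjusted p = 0.35, limma) and −0.21 in input (−0.55 to 0.14, adjusted p = 0.52). All control IP libraries lay below all control input libraries (LFC −0.68, adjusted p = 0.0030, limma).

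Panx1 (ENSMUSG00000031934, chr9:15002128-15045478), which encodes the ATP-permeable channel pannexin 1, was called in no comparison. Its 16 values lay between 20.3 and 34.5 CPM, with control means of 28.7 ± 4.8 (input) and 26.8 ± 2.0 (IP) and DTR means of 26.2 ± 1.2 (input) and 23.4 ± 2.8 (IP, SD, n = 4). The difference after damage was −0.23 in IP (95% interval −0.51 to 0.05, adjusted p = 0.27, limma) and −0.12 in input (−0.40 to 0.15, adjusted p = 0.66).

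The 3 IP3 receptors, the calcium release channels of the endoplasmic reticulum, gave 3 different patterns. Itpr2 (ENSMUSG00000030287, chr6:146108299-146502223) read 52.2, 63.7, 71.9 and 58.3 CPM in control input and 64.4, 75.6, 62.4 and 72.2 CPM in control IP. In DTR it read 30.8, 38, 34.3 and 37.9 CPM in input and 46.3, 49.6, 52.1 and 56.1 CPM in IP. DTR libraries lay below all control libraries in both fractions. Itpr2 fell by 1.75-fold in input (LFC −0.79 ± 0.12, SE, adjusted p = 0.00015, limma) and by 1.35-fold in IP (LFC −0.46, adjusted p = 0.014). The call in IP was lost without DTR IP 1 (adjusted p = 0.053). In DTR cochleae Itpr2 was higher in IP than in input in 4 of 4 pools (LFC 0.50, adjusted p = 0.0033, limma), and in control in 3 of 4 (LFC 0.16, adjusted p = 0.32).

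Itpr3 (ENSMUSG00000042644, chr17:27057304-27122223) was called in opposite directions in the 2 fractions. It read 53.1, 44.1, 40.5 and 29.0 CPM in control input and 14.6, 18.1, 10.9 and 10.8 CPM in control IP. In DTR it read 33.0, 24.8, 24.3 and 30.7 CPM in input and 20.7, 19.4, 25.2 and 21.3 CPM in IP. All DTR IP libraries lay above all control IP libraries, whereas the input groups overlapped through control input 4. Itpr3 rose in IP by 1.59-fold (LFC 0.60 ± 0.17, SE, adjusted p = 0.019, limma), a call lost without control IP 3 (adjusted p = 0.071), control IP 4 (0.051) or DTR IP 3 (0.062). In input it was called lower (LFC −0.54, adjusted p = 0.042), and this call was lost when any 1 of 6 of the 8 input libraries was left out (all but control input 4 and DTR input 1, adjusted p from 0.055 to 0.16), without quantile normalization (0.073), without the filter (0.075) and in a fit of those groups alone (0.052). The change in IP exceeded that in input by 1.14 on the log2 scale (SE 0.24), which did not pass over all genes (adjusted p = 0.147, limma interaction). It passed with the replicate number as a block (adjusted p = 0.028), with DESeq2 (0.0054) and without control input 4 (0.044). The antisense gene Itpr3os shares 233 exonic bases with Itpr3.

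In control pools, Itpr3 also had the lowest ratio of IP to input among the 9 tested genes. There the ratio was 0.275, 0.411, 0.269 and 0.373, and in DTR pools 0.627, 0.781, 1.03 and 0.695. The 2 ranges did not overlap. The difference between IP and input passed in control (LFC −1.56 ± 0.17, SE, adjusted p = 8.50e-07, limma). In DTR it was −0.42 and did not pass (adjusted p = 0.057), though it did with the block (adjusted p = 0.020). Lists of markers of other cells were lower in control IP than in control input too, and differed in their values after damage. The 10 hair cell markers summed to between 627 and 777 CPM in control input and 179 to 265 CPM in control IP, and to between 270 and 312 CPM in DTR IP. The 5 endothelial markers summed to 30.1 to 46.9 CPM in control IP and 44.1 to 60.3 CPM in DTR IP, and the 9 macrophage markers to 20.7 to 30.6 and 44.1 to 74.2 CPM. The 6 Schwann cell markers, by contrast, summed to 785 to 1248 CPM in control IP and 568 to 783 CPM in DTR IP, and the 7 neuronal markers to 116 to 334 and 47.5 to 333 CPM. The part of these cells in the values of Itpr3 was not tested.

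Itpr1 (ENSMUSG00000030102, chr6:108213096-108551109) read 61.0, 54.8, 58.9 and 56.0 CPM in control input and 41.0, 50.7, 32.5 and 38.5 CPM in control IP. In DTR it read 53.0, 51.6, 38.6 and 62.0 CPM in input and 62.0, 43.1, 55.2 and 49.2 CPM in IP. Control IP lay below control input in all 4 pools (LFC −0.52, adjusted p = 0.0045, limma), and in DTR the LFC was 0.01 (adjusted p = 0.98). After damage it did not pass in IP (LFC 0.33, adjusted p = 0.11) or in input (LFC −0.20, adjusted p = 0.43).

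Compared per kilobase of exon, shares of the 3 receptors in their summed level differed between groups, more for Itpr2 and Itpr3 than for Itpr1. The exons of Itpr1, Itpr2 and Itpr3 span 18.3, 14.8 and 9.02 kilobases. Before its clustering, the study corrected a gene length effect that varied between its IP samples. No such correction was made here, and the part of length in these shares was not tested. Itpr2 made up 55.7% ± 4.0 (SD, n = 4) in control IP and 39.7% ± 3.7 in DTR IP, and these ranges did not overlap. Itpr3 made up 17.9% ± 2.6 in control IP, 27.5% ± 1.7 in DTR IP, 38.4% ± 6.3 in control input and 37.6% ± 3.6 in DTR input. The share of Itpr1 was 26.4% ± 1.5 in control IP and 32.8% ± 3.9 in DTR IP. Itpr2 thus led in control IP in every library, while Itpr3 had the highest mean share in both input groups, though not in every library. Itpr2 was above Itpr3 in control input 3 (38.6% against 35.8%) and control input 4 (38.6% against 31.5%). In DTR input 2, Itpr1 was above Itpr3 (34.6% against 33.8%).

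**Figure D2:**
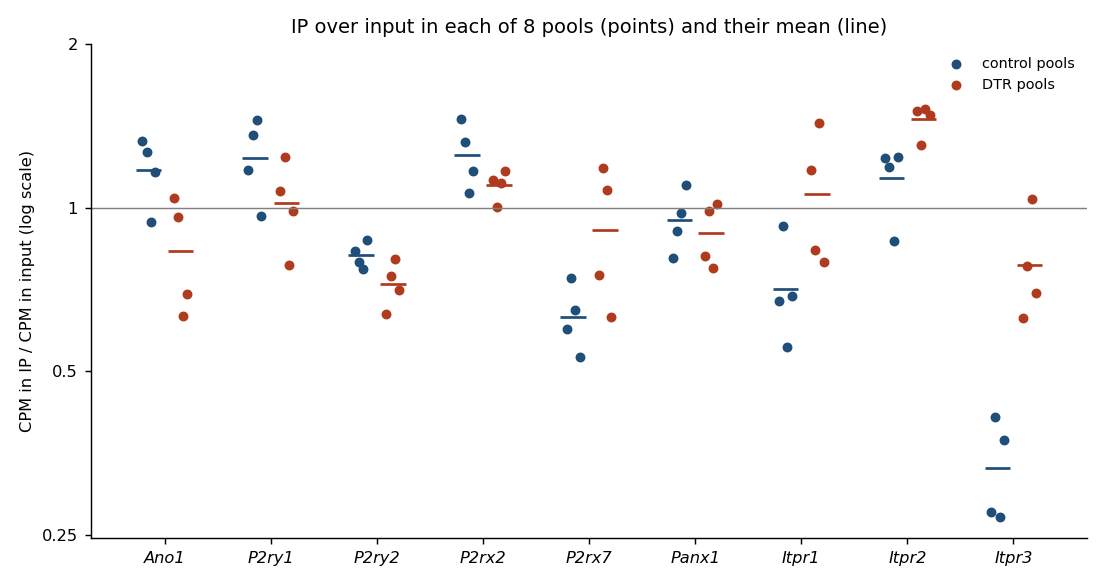
CPM in IP over CPM in input of the same pool (log axis) for the 9 tested genes, with 4 control pools and 4 DTR pools as points and the mean as a line. Itpr3 lies between 0.269 and 0.411 in control and between 0.627 and 1.03 in DTR pools, and P2ry2 lies below 1 in all 8 pools.

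In sum over the 9 tested genes, 5 were called in DTR IP against control IP (Ano1, P2ry2, P2rx2 and Itpr2 lower, Itpr3 higher), where 15.7% of all tested genes were called, 8.44% higher and 7.30% lower. In input 5 were called, all lower (Ano1, P2ry2, P2rx2, Itpr2 and Itpr3), where 12.4% of all genes were called, 7.17% higher and 5.21% lower. The median LFC of the 9 genes was −0.46 in IP and −0.44 in input, against −0.0043 and −0.021 over all genes. Ano1, P2ry2, P2rx2 and Itpr2 were lower in both fractions, as were 3.70% of all genes. Ano1 and P2ry2 were lower by at least 1 on the log2 scale in both, as were 1.20% of all genes. Under the study's rule, which also asks for an absolute LFC of at least 1 and a separation of groups above 1.5, Ano1 and P2ry2 were called in IP (2.47% of all genes) and P2ry2 in input (2.34%). Libraries of the 2 treatments did not overlap for 5 of the 9 genes in IP and 4 in input, and for 17% and 19.3% of all genes. Higher in IP and lower in input held for Itpr3 and 1 other gene in all (0.0118%). For Itpr3 the call in input was lost in 6 of 8 fits without 1 library, and that in IP in 3 of 8. Its interaction did not pass (adjusted p = 0.147, limma interaction).

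**Figure D3:**
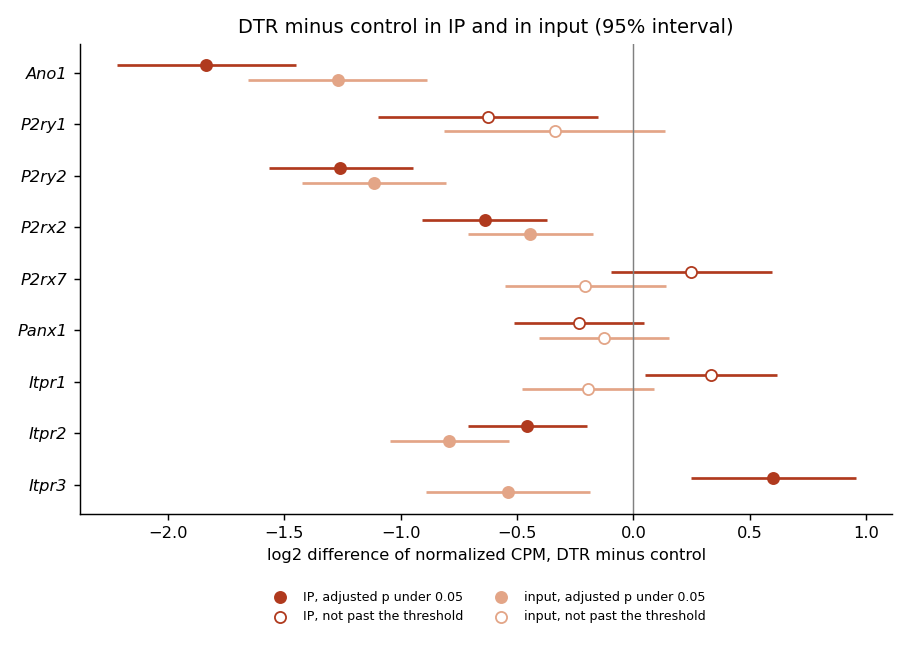
Log2 difference of normalized CPM, DTR minus control, for the 9 tested genes in IP and in input, with 95% intervals as lines. Filled points passed an adjusted p of 0.05. Ano1 lies farthest from 0 at −1.83 in IP, and Itpr3 lies at 0.60 in IP and −0.54 in input.

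Between IP and input, 3 of the 9 genes were called in control cochleae, all lower in IP (P2rx7, Itpr1 and Itpr3), where 39.9% of all genes were called. All IP libraries lay above or below all input libraries for those 3 and for P2rx2, and for 38.7% of all genes. With the pool as a block, P2ry2 (lower) and P2rx2 (higher, LFC 0.29, adjusted p = 0.025) were called as well. In DTR cochleae P2ry2 (lower) and Itpr2 (higher) were called, where 39.2% of all genes were called. No gene among the 9 met the study's enrichment rule, which asks for an LFC of at least 2 and a mean above the median. As applied here, the rule also required a call and the same separation of groups as the rule for damage. Genes lower in IP to that extent were counted too. In this count, 0.789% of all genes met the rule in control and 0.641% in DTR cochleae, and these are not shares of enriched genes alone.

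Among all 15 P2 receptor genes, levels per kilobase of exon were led by P2rx2 in 3 groups. It stood at 16.3 ± 1.7 CPM per kilobase in control input and 20.1 ± 1.0 in control IP (SD, n = 4). P2rx4, another ATP-gated channel, stood at 9.94 ± 0.33 and 15.6 ± 0.1 in the same groups, and the ranges of the 2 genes did not overlap. In DTR IP the order was the other way, with P2rx4 at 18.6 ± 1.1 (17.5 to 19.9) and P2rx2 at 13.3 ± 2.1 CPM per kilobase (10.4 to 15.5). In DTR input P2rx2 (12 ± 1.2) and P2rx4 (10.7 ± 1.7) did not differ beyond their spread. P2ry1 followed at 11.9 ± 2.8 in control IP and 7.77 ± 1.3 in DTR IP. P2ry2 came next in control IP at 5.57 ± 0.69, above P2rx7 at 3.65 ± 0.68, whereas in DTR IP P2rx7 (4.45 ± 0.55) was above P2ry2 (2.30 ± 0.24). The other receptors were below 4 CPM per kilobase on average in every group. The order of P2rx2 and P2rx4 depends on the exon lengths, which cover all annotated transcripts of a gene. In CPM without this scaling, P2rx4 was above P2rx2 in all 4 groups. The means were 69.8 against 41.9 in control input, 109.5 against 51.9 in control IP, 75.4 against 30.9 in DTR input and 130 against 34.2 in DTR IP.

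**Figure D4:**
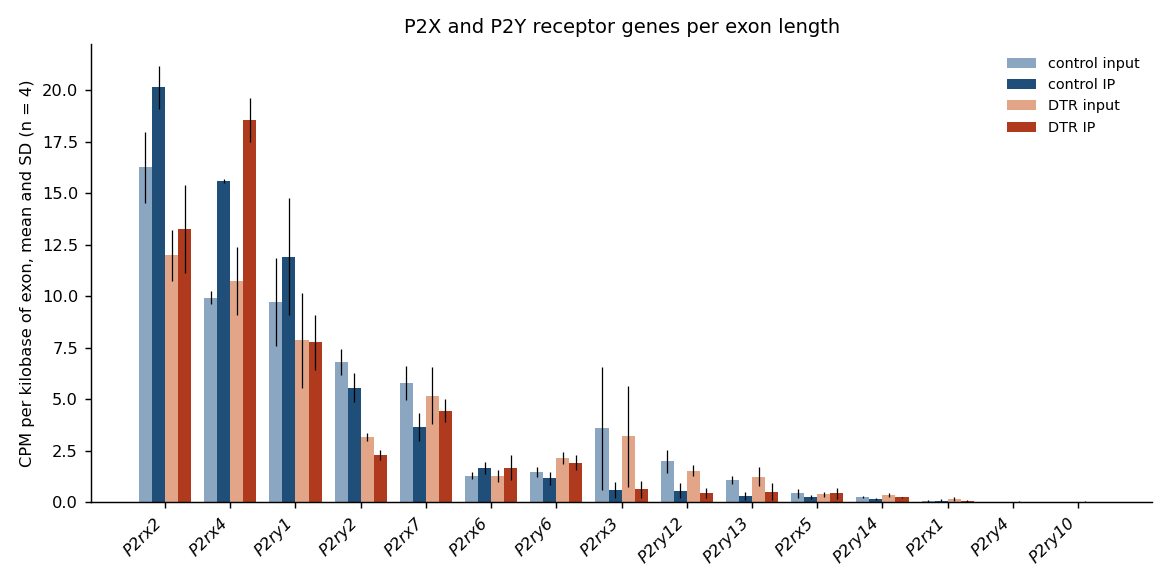
Mean CPM per kilobase of annotated exon for 15 P2X and P2Y receptor genes in the 4 groups (linear axis from 0, error bars are the SD of 4 libraries), ordered by control IP. P2rx2 leads in control IP at 20.1 and P2rx4 in DTR IP at 18.6.

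With limma, 0 of the 8 tested P2 receptors outside the 10 genes were called after damage in either fraction. Of all genes 15.7% were called in IP and 12.4% in input. At an unadjusted p under 0.05 there were 2 in IP (P2rx4 and P2ry6) and 1 in input (P2ry6). P2ry6, a UDP receptor that the naming rule did not cover, was called in IP by edgeR, DESeq2 and the fit with the replicate block (1 of 8 each). P2rx4 had means of 109 CPM (control) and 130 CPM (DTR) in IP (LFC 0.24, adjusted p = 0.13, limma). Between control IP and control input, P2rx4 was higher, while P2rx3, a receptor of sensory neurons (LFC −1.97), P2ry12 (−1.50) and P2ry13 (−1.32), both known from microglia and macrophages, were lower. Of the 8 genes 4 were thus called, where 39.9% of all genes were. P2rx3 and P2ry13 passed the filter only through the input groups, where they were higher.

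The related lists together held 92 genes, of which 80 were tested. In DTR IP against control IP, 4 were higher and 8 lower, a share of 15% that lay near the 15.7% of all genes. In input 2 were higher and 4 lower (7.5% against 12.4%). Between control IP and control input, 14 were higher and 29 lower (53.8% against 39.9%). Their median LFC was −0.08 in IP and −0.10 in input.

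Of 7 tested genes of ATP release, 3 were called in DTR IP against control IP, where 15.7% of all genes were called. The connexin genes Gjb6 (LFC −0.62, adjusted p = 0.031) and Gjb2 (LFC −0.61, adjusted p = 0.00062), which form the gap junctions and hemichannels of supporting cells, fell. Gjb2 averaged 1619 CPM in IP of control and 937 CPM in IP of DTR cochleae. Slc17a9, the vesicular nucleotide transporter, rose (LFC 0.81, adjusted p = 0.017, limma), but from a low level of 0.644 CPM to 1.89 CPM. In control IP against control input Lrrc8a, a subunit of the volume-regulated anion channel (LFC 1.47), Panx2 (0.88) and Gjb6 (0.88) were higher.

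In nucleotide breakdown and adenosine signalling, 2 of 14 tested genes were called after damage in IP, a share near the 15.7% of all genes, and both were lower. Entpd2, an ectonucleotidase that turns ATP to ADP, fell from 19.1 to 6.47 CPM (LFC −1.52, adjusted p = 8.39e-06, limma). Adora1, the A1 adenosine receptor, fell from 5.40 to 2.53 CPM (LFC −1.14, adjusted p = 0.0020). In input both were lower too, at LFCs of −0.97 and −1.31. Adora2b, the A2B receptor, was higher in control IP than in control input (LFC 1.62), and the nucleotide hydrolases Entpd1 (−1.43) and Enpp1 (−1.04) were lower.

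Of 13 genes of Gq and phospholipase C, 2 were called in DTR IP against control IP (Gna14 and Plcd4, both lower), a share near the 15.7% of all genes. With the replicate block, edgeR and DESeq2, Plcb3 (lower, 46.9 to 34.9 CPM) and Plcd3 (higher, 10.9 to 19.4 CPM) were called as well (4 of 13 each). Gna14, an alpha subunit of the Gq family, went from 67.8 to 32.2 CPM (LFC −1.10, adjusted p = 3.04e-05, limma) and also fell in input (LFC −0.59, adjusted p = 0.011). Plcd4 had an LFC of −0.69 in IP (adjusted p = 0.0067) and −0.10 in input (adjusted p = 0.79). Control IP held more Gna11 (LFC 0.90) and less Plcb3 (−0.83) and Gna15 (−0.70) than control input.

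Among 21 tested genes of calcium stores and extrusion, 1 was called after damage in IP, where 15.7% of all genes were called. It was Ryr1, a ryanodine receptor, at a low level (0.280 to 1.18 CPM, LFC 0.90, adjusted p = 0.0044, limma). Its control IP libraries read 0.233 to 0.329 CPM and its lowest control input library 0.381 CPM. Ryr1 thus passed the filter of 0.5 CPM only through the DTR groups, where it was higher, which limits this call. In input limma, edgeR and DESeq2 called 0, with 2, 2 and 1 genes at an unadjusted p under 0.05. In IP the replicate block also called Atp2b2 and Saraf (3 of 21), and edgeR and DESeq2 also called Saraf (2 of 21). In control IP against control input 10 of the 21 were lower and 2 higher, where 20.7% of all genes were lower and 19.3% higher. The lowest were the calcium pump Atp2a3 (71.4 CPM in input and 7.58 CPM in IP, LFC −3.11), the exchanger Slc8a1 (−1.23) and the pump Atp2a2 (−1.03). Slc8a1 was low and passed the filter only through the input groups, where it was higher.

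Among 17 tested calcium-activated channels and chloride transporters, 4 were called in DTR IP against control IP, where 15.7% of all genes were called. Ano2, another calcium-activated chloride channel gene, fell from 3.55 to 1.51 CPM (LFC −1.23, adjusted p = 0.00098, limma). The BK potassium channel gene Kcnma1 (LFC 0.59, adjusted p = 0.021) and Slc12a2, the NKCC1 cotransporter that loads cells with chloride (LFC 0.52, adjusted p = 0.033), rose. The call of Slc12a2 was lost with edgeR and DESeq2. Slc12a2 averaged 413 CPM before and 569 CPM after damage in IP. The fourth was Ano10, lower, named because the count is small and not by the naming rule. Control IP held less Kcnmb2 (LFC −1.03), Ano4 (−0.93) and Ano6 (−0.91) than control input.

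**Figure D5:**
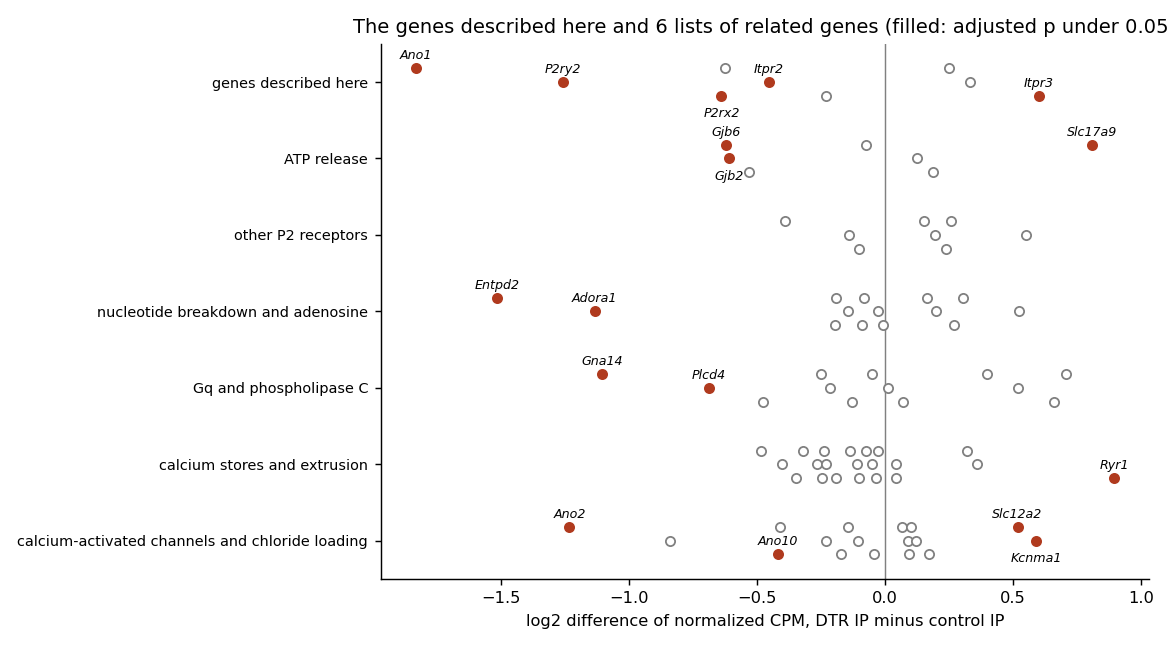
Log2 difference of normalized CPM, DTR IP minus control IP, for the 9 tested genes (top) and the tested genes of 6 related lists, 1 point per gene. Filled points passed an adjusted p of 0.05 and carry the gene's name. Most points of the lists lie near 0, with Entpd2 at −1.52 and Ano2 at −1.23 the lowest.

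The genes whose log2 levels most resembled those of Ano1 over the 16 libraries were Kcnk3, a two-pore potassium channel gene (Pearson's r = 0.981), Glb1l2 (0.981), Scube2 (0.980), Kremen1 (0.979) and Prkcq (0.976). Kcnk3 averaged 15.1 CPM in IP of control and 5.38 CPM in IP of DTR cochleae. Of the other genes described here, P2ry2 was the most similar (r = 0.905, rank 125), followed by P2rx2 (0.854), Itpr2 (0.762), P2ry1 (0.673) and Panx1 (0.440). Itpr3, P2rx7 and Itpr1 had values of −0.143, −0.146 and −0.177. Within groups, r with Ano1 was lower for P2ry2 (0.423), P2rx2 (0.422), Itpr2 (0.464), P2ry1 (0.398) and Panx1 (−0.078). Libraries of the same pool and of the same group share tissue and treatment, so that these values only describe the 16 libraries.

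Markers of several cell types also differed after damage, some lower, as Ano1 and P2ry2 were, and some higher. Of all tested genes 7.30% were lower and 8.44% higher in IP, and 5.21% were lower and 7.17% higher in input. All 5 markers of LGR5+ supporting cells were lower in DTR input, and 4 of 5 in DTR IP, where their sum ranged from 265 to 395 CPM against 748 to 992 CPM in control IP. The 2 markers of inner phalangeal and border cells summed to 526 to 650 CPM in control IP and 307 to 432 CPM in DTR IP, of which Fabp7 was called lower (LFC −1.42) and Slc1a3 was not (LFC −0.11, adjusted p = 0.50, limma). Of 6 GER markers, Tecta and Fst were lower in both fractions, Epyc and Otoa were higher in input, and the sum of the 6 ranged from 6703 to 7558 CPM in control IP and from 6068 to 7697 CPM in DTR IP. Of 9 macrophage markers, 6 were higher in each fraction. Of 6 Schwann cell markers, 4 were lower in input and 2 in IP, and 0 were higher. Of 7 mesenchyme markers, 4 were higher in IP and 1 in input, and 0 were lower. Of 10 hair cell markers, 3 were higher in IP and 0 lower, and 0 were called in input. Of 7 neuronal markers 0 were called. No marker gene of these lists was at 0 in any library, and the part of these cells in the changes of Ano1, P2ry2, P2rx2 and Itpr2 was not tested.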

How the data were processed

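RNA was sequenced from cochleae at P4 as ribosome IP and matched input. Values are CPM, scaled per library and deposited by the authors. By their methods reads were aligned to GRCm38 with HISAT2 and counted with HTSeq, whereas the submitters' processing notes list TopHat, and the annotation release and strand setting are not given in the sources used here. Libraries were prepared with SMART-Seq v4. Every value above 0 was a whole multiple of 1 read (within 0.01 read), so reads were recovered. Of 50316 listed genes, 2587 were NA in every library. A count of 3 reads equals 0.0715 to 0.107 CPM.

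After quantile normalization over the 16 libraries, values were transformed as log2(CPM + 0.5), which understates changes of low genes. The 16994 genes that reached 0.5 CPM in each replicate of some group entered 1 limma fit of every library (trend, limma 3.58.1, R 4.3.3), with Benjamini-Hochberg adjustment over all of them. Alternatives were deposited CPM without quantile normalization, centring on library medians, other pseudocounts and filters, fits of the groups compared, a block, edgeR (version 4.0.16, quasi-likelihood) and DESeq2 (version 1.42.0) on recovered reads, and each library left out. The block was the replicate number for DTR against control. For IP against input and for the interaction it was the pool, that is the homogenate shared by IP and input. The procedure was tested on simulated data. Separation is the lowest value of the higher group over the highest of the lower, with a floor of 1.08 CPM. Gene models and exon lengths came from GENCODE (GRCm38). The study's correction for gene length in IP samples was not applied, so differences between IP and input may hold a length effect, which was not tested.

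Same-numbered libraries deviated together. The lowest correlation of a pair was 0.288 between control input and IP, 0.312 between DTR input and IP, 0.306 between control and DTR IP and 0.291 between control and DTR input, and each was above 0.1. IP and input of a number come from 1 homogenate by the methods and labels, while a shared origin of control and DTR numbers rests on these correlations alone. The fourth replicate of each group carries another number in the deposited columns than in the labels.

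The genes, related lists, markers and motifs were chosen with earlier results of these data known. Named were all 10 genes, Lgr5, up to 3 called genes per related list with the largest absolute LFC in DTR IP against control IP and in control IP against control input, and the 5 genes most correlated with Ano1.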

Additional observations from a re-analysis of the deposited data

How the results depend on the processing

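Over settings other than leaving out a library, 386 values of the 9 genes kept their direction and side of the threshold, 13 gained a call, 4 lost one and 2 changed sign. Both sign changes were of values near 0 in DTR IP against DTR input, P2ry1 at 0.0099 on deposited CPM and Itpr1 at −0.0012 with centring on the median. The number of genes called moved with the pool as a block from 3 to 5 in control IP against control input, and from 0 to 1 (Itpr3) for the interaction, which also had 1 with DESeq2. At an unadjusted p under 0.05 the interaction held Ano1, Itpr1 and Itpr3 with limma, edgeR (0 calls) and DESeq2. Over all genes the interaction had 2 calls with limma, 40 with the block, 49 with DESeq2 and 0 with edgeR. Among the 9 genes the block changed no other call than those given beside P2ry1, P2ry2, P2rx2 and Itpr3. With 1 library left out, 3 to 4 genes were called in DTR input against control input (3 without control input 3 or DTR input 2, which left Ano1, P2ry2 and Itpr2), 1 to 3 in DTR IP against DTR input (1 without DTR input 4 or DTR IP 1, which left Itpr2) and 0 to 1 for the interaction (1 without control input 4, Itpr3). In DTR IP against DTR input these fits put P2ry1 between −0.1989 and 0.1488 and Itpr1 between −0.104 and 0.0965. Calls were gained by Itpr1 in IP after damage without DTR IP 2 (adjusted p = 0.046), by P2ry2 in control IP against control input without control IP 4 (0.034), and in DTR IP against DTR input by P2rx7 without DTR input 2 (0.0499) and Itpr3 without DTR IP 3 (0.038, or 0.042 in a fit of those groups alone, where P2ry2 lost its call at 0.052). P2rx2 was called higher in control IP than in control input by edgeR (0.020), DESeq2 (0.024) and a fit of those groups alone (0.045). The cause of these shifts was not tested. The low level of P2ry4 kept it out of the test across genes.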
